A study of Mus musculus with 6 samples.

Results

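The B cell identity genes followed here are Cd79a, Cd79b, Ms4a1, Ly6d, Ebf1 and Pax5, 6 of the 14975 genes in a table of platelet RNA from mice. The set was drawn up as 8 names and its members were chosen by levels seen earlier in these same libraries, so their difference between the groups is given as a description, with no test. Ighm and Igkc, the constant genes of the IgM heavy chain and the kappa light chain, were the other 2 names and were not analysed here.

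The labels name the groups WT and AML, both on a C57BL/6 background, and the names control and pre-AML are used here after the study. According to its methods, pre-AML mice received progenitor cells transformed with an MLL-AF9 retrovirus that also carries GFP, and control mice received normal bone marrow. All recipients were irradiated females, 8 to 12 weeks old by the description of the mice, and platelets were taken 1 week after transplantation. At that time blood cells of the irradiated host can still be present, and the RNA labels do not tell host from donor. Each group has 3 libraries. The methods describe 3 separate mice, while the design text speaks of 2 replicates with 3 to 4 mice pooled for each. If libraries of a group do not come from separate mice, p-values measure only the spread between these samples. Platelets were purified by removing cells that carry CD45, the surface protein of white blood cells, or Ter119, a protein of red blood cells, and the cDNA was amplified by SMART-Seq2.

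Mature B cells carry an antigen receptor that consists of a surface immunoglobulin and the signal-passing pair CD79A and CD79B. EBF1 and PAX5 are transcription factors that commit progenitors to the B lineage and hold that identity, and MS4A1 (CD20) is a surface protein of mature B cells. LY6D, a small lipid-anchored surface protein, marks lymphoid progenitors that turn to the B lineage and stays on B cells. Platelets come from megakaryocytes, have no antigen receptor, and are not known to need any of these genes.

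The coding sequences of the receptor pair show what the subunits share. Each holds 1 ITAM, the motif whose 2 tyrosines are phosphorylated when the receptor is engaged. The 54 coding bases of each motif follow, from GENCODE M21 transcripts on GRCm38, 5′ to 3′, with the 2 tyrosine codons in capitals.
Cd79a: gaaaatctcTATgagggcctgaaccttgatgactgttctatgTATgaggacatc
Cd79b: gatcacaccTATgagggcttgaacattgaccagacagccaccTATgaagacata
The first spans chr7:24901287-24901469 on the plus strand, across exons 4 and 5 of 5, and the second spans chr11:106311867-106312021 on the minus strand, across exons 5 and 6 of 6. Of the 54 bases, 35 are identical (64.8%), and the tyrosine codons stand at the same places in both.

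The table gives FPKM, reads scaled by gene length and by the size of the library. With the union of GENCODE M21 exons as gene length, between 83.8% and 85.4% of the values of up to 100 reads were whole multiples of 1 read, within 0.05 read, and reads were recovered on that basis. The recovered reads on listed genes ran from 11780197 to 17522262 per library. For the 6 B cell genes the values were whole in every library. Pre-AML 3 stood apart from the other 5 libraries, at 41.9 on a first principal component with 70.2% of the variance, against -12.7 to -2.12. It was also the deepest library, and its FPKM values had been divided by 1.33 times its recovered reads, while the factor was between 0.996 and 1.03 elsewhere. Equal shares of the reads thus give lower FPKM there. The platelet genes Itga2b, for integrin αIIb, and Pf4, for platelet factor 4, were high in every library, with Itga2b between 1389 and 1778 FPKM.

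Transcripts of Cd79a, Cd79b, Ms4a1 and Ly6d were at the edge of detection in the controls and in pre-AML 1, stood above them in pre-AML 2, and were highest in pre-AML 3. The 6 genes together had 15, 28 and 44 reads in control 1, control 2 and control 3. The pre-AML libraries 1 to 3 had 24, 153 and 2530 reads. Scaled to the recovered reads of each library, this was 1.27 to 3.73 RPM in the controls, 1.80 RPM in pre-AML 1, 10.4 RPM in pre-AML 2 and 144 RPM in pre-AML 3. Pre-AML 1 was thus inside the range of the controls, and most of the reads came from 1 library. In bulk RNA, more cells of a type and more RNA per cell cannot be told apart.

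**Figure D1:**
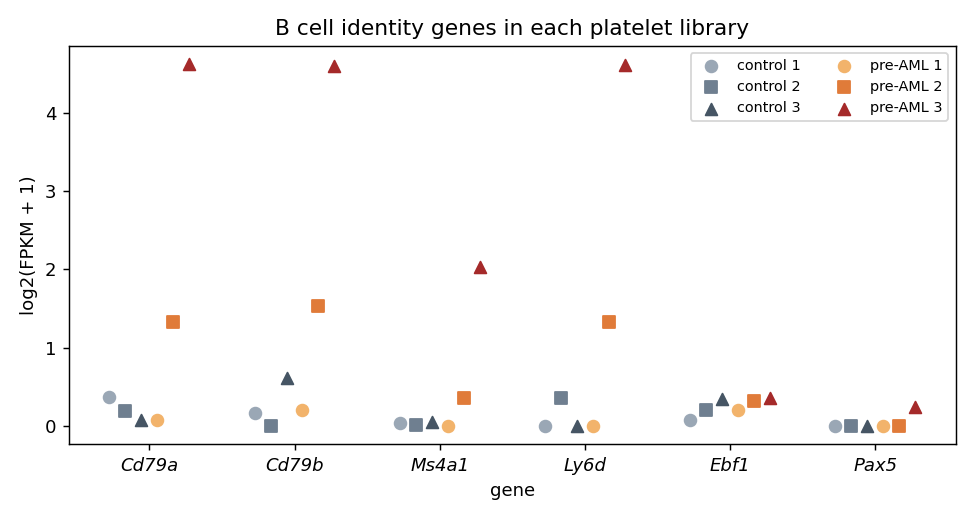
Level of each B cell identity gene, as log2(FPKM + 1) on the vertical axis, with 1 point per library (controls in grey, pre-AML in orange to red). Pre-AML 3 has the highest point for all 6 genes, pre-AML 2 is second for Cd79a, Cd79b, Ms4a1 and Ly6d, and the points of Ebf1 lie close together.

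Cd79a (Entrez gene 12518), which encodes the alpha subunit that passes the receptor signal, lies at chr7:24897381-24902197 (GRCm38, plus strand). Its level was 0.292, 0.146 and 0.0577 FPKM in control 1, control 2 and control 3, and 0.0516, 1.501 and 23.6 FPKM in the pre-AML libraries 1 to 3. Pre-AML 1 was not above the controls, pre-AML 2 was 5.13 times the highest control, and pre-AML 3 was 15.7 times pre-AML 2. Behind these values were 5, 3 and 1 reads in the controls and 1, 33 and 802 reads in the pre-AML libraries. Pre-AML 1 and control 3, at 1 read each, are not told apart.

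Cd79b (Entrez gene 15985), the beta subunit, lies on chromosome 11 from 106311341 to 106314762 on the minus strand. It had 0.119, 0 and 0.529 FPKM in the controls and 0.158, 1.90 and 23.2 FPKM in the pre-AML libraries 1 to 3. The 0 in control 2 allows up to 0.149 FPKM, the worth of 3 reads. Pre-AML 1 lay within the controls, and pre-AML 2 and pre-AML 3 above them. The partner subunits had nearly the same level in pre-AML 3, with Cd79b at 0.984 times Cd79a per length, and at 1.27 times in pre-AML 2.

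Ms4a1 (Entrez gene 12482), the gene of CD20, lies on chromosome 19 from 11249675 to 11266241 on the minus strand. Its values were 0.0275, 0.0115 and 0.0407 FPKM in the controls and 0, 0.279 and 3.08 FPKM in the pre-AML libraries 1 to 3, from 2, 1, 3, 0, 26 and 444 reads. As for Cd79a, pre-AML 1 was not above the controls, pre-AML 2 stood above them and pre-AML 3 was highest. The FPKM of Ms4a1 is per 6187 bases of annotated exons, which include retained introns, while its coding transcript has 3075, so its level per length is understated beside Cd79a.

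Ly6d (Entrez gene 17068) lies at chr15:74762056-74763620, minus strand. It was detected with 3 reads (0.287 FPKM) in control 2, was at 0 in control 1, control 3 and pre-AML 1, and had 17 reads (1.52 FPKM) in pre-AML 2 and 405 reads (23.3 FPKM) in pre-AML 3. At 0 reads, up to 0.344 FPKM is allowed in control 1 and 0.303 FPKM in pre-AML 1. Relative to Cd79a, its level per length was 1.009 in pre-AML 2 and 0.989 in pre-AML 3.

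Ebf1, a transcription factor, did not share this order. The gene (Entrez gene 13591), on chromosome 11 from 44617317 to 45008091 on the plus strand, was detected in every library, at 0.0524, 0.153 and 0.267 FPKM in the controls and 0.154, 0.245 and 0.286 FPKM in the pre-AML libraries 1 to 3. The groups overlapped, and pre-AML 3 was 1.07 times the highest control. Its reads were 6, 21 and 31 in the controls and 20, 36 and 65 in the pre-AML libraries, so most Ebf1 reads of the series lay outside pre-AML 3, which held 36.3% of them. For Cd79a, Cd79b, Ms4a1 and Ly6d that share was between 93.3% and 95.3%.

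Pax5 (Entrez gene 18507), on chromosome 4 from 44524757 to 44710487 on the minus strand, had 39 reads in pre-AML 3 (0.189 FPKM) and 0 reads in the other 5 libraries. The 0 of pre-AML 2 allows up to 0.0225 FPKM and that of control 1 up to 0.0289 FPKM, so Pax5 was at least 6.54-fold higher in pre-AML 3 than the highest of these floors, each 3 reads in 1 library. Both factors were far below the receptor genes in that library, with Ebf1 at 0.0121 and Pax5 at 0.00800 times the level of Cd79a per length. The annotated exons of Ebf1 cover 9756 bases and its longest coding transcript 5981, so its level per length is understated too.

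As group means, Cd79a stood at 0.166 ± 0.118 FPKM (control, SD, n = 3) and at 8.38 ± 13.2 FPKM (pre-AML, SD, n = 3). The SD of the pre-AML group exceeded its mean for Cd79a, Cd79b, Ms4a1, Ly6d and Pax5. Differences of mean log2(FPKM + 1), pre-AML minus control, were 1.79 for Cd79a, 1.86 for Cd79b, 0.76 for Ms4a1, 1.86 for Ly6d, 0.088 for Ebf1 and 0.083 for Pax5. On this scale the change of genes with low FPKM is understated. The median of the 6 was 1.27, beside 0.021 over all 14975 genes. Without pre-AML 3 the differences were 0.48, 0.62, 0.14, 0.54, 0.054 and 0. None of the 6 genes had all pre-AML libraries above all controls, a pattern held by 7.53% of the 14975 genes, so in every case the groups overlapped or tied.

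The library pattern of the 6 genes can be set beside that of all genes, from which nothing is read since these levels chose the members. A level in pre-AML 3 of at least 0.1 FPKM and 4 times the highest other library was found for 5 of 6 and for 7.01% of all genes, with Ebf1 as the exception. The order with pre-AML 2 above all controls and pre-AML 1, and pre-AML 3 above pre-AML 2, was found for 4 of 6 and for 9.23% of all genes. Ebf1 and Pax5 lacked it.

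How much higher pre-AML 3 was than pre-AML 2 was compared between genes from the recovered reads, with exact binomial 95% intervals, which cover counting error only, since PCR copies are not independent molecules. The FPKM ratio was 15.7 for Cd79a (interval 11.1 to 23.0), 12.2 for Cd79b (8.93 to 17.2), 11.04 for Ms4a1 (7.43 to 17.1) and 15.4 for Ly6d (9.502 to 26.7). For Ebf1 the ratio was 1.17 (0.766 to 1.81). These levels chose the members, so the intervals are a description and no test of whether genes share a ratio. The ratios compare 2 libraries, not the conditions.

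Ratios of other white blood cell genes differed widely. Ratios were taken only for genes with a control mean under 1 FPKM, whole reads in both libraries and at least 50 reads in both together, which leaves out genes that platelets hold, such as Lyn. Over 18 B cell surface, signalling and transcription factor genes of this kind, the median was 7.002, from 1.51 for Bcl6 to 47.2 for Ikzf3, with only 1 read of Ikzf3 in pre-AML 2. The class II genes H2-Aa, H2-Ab1 and H2-Eb1, whose products present antigen on B cells and on myeloid cells, were at 9.35, 9.52 and 6.98. By contrast, C1qb, a complement gene of macrophages, had 2 reads in pre-AML 2 and 3241 in pre-AML 3, a ratio of 1048 (290 to 8656). Gzma, a granule protease of killer cells, was at 1.93 (1.47 to 2.57). The ratios of Cd79a, Cd79b, Ms4a1 and Ly6d were not particular to the B lineage. The median over 10 monocyte and macrophage markers was 33.95, from 2.20 to 1078, with Csf1r at 15.9 (11.6 to 22.4). Cd48 and Lcp1, genes of all white blood cells, were at 15.6 and 11.3.

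**Figure D2:**
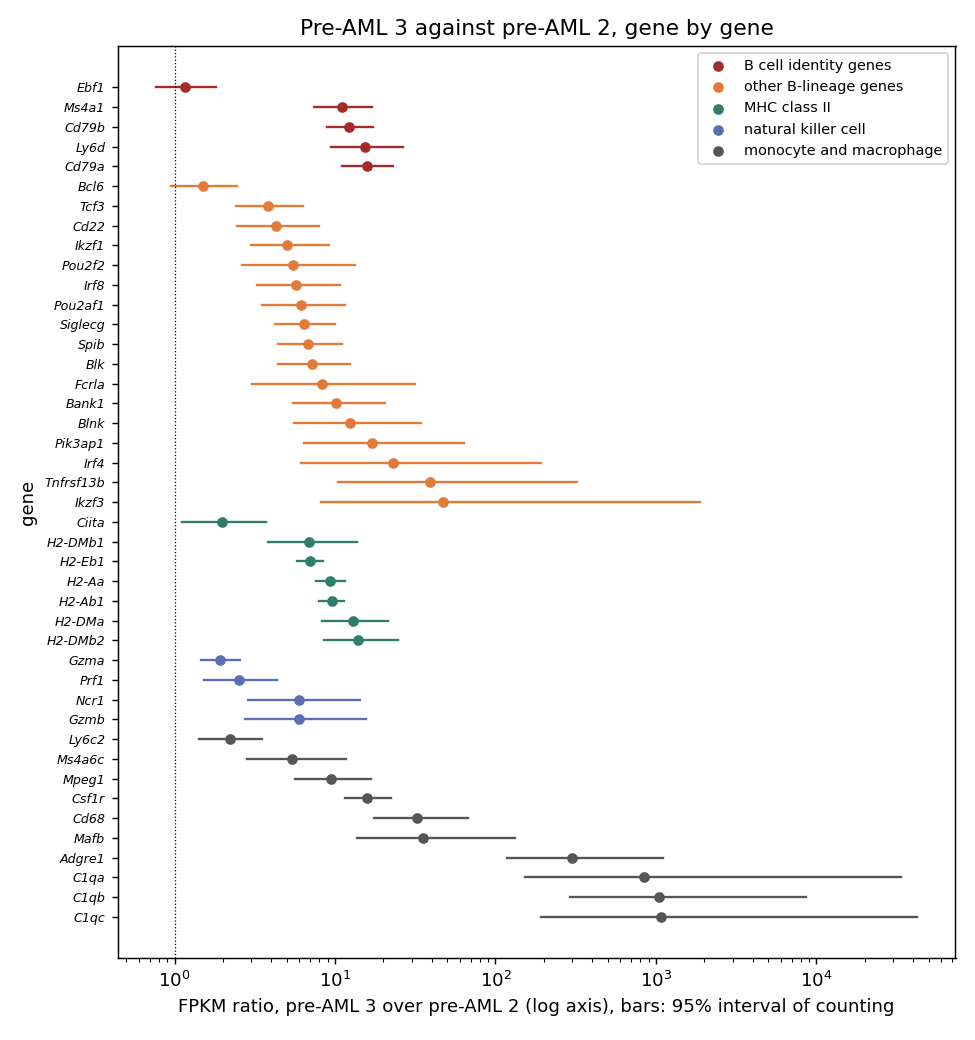
Ratio of FPKM in pre-AML 3 to pre-AML 2 on a log axis for genes of 5 kinds, 1 row per gene, with bars for the 95% interval of counting and a dotted line at 1. Cd79a, Cd79b, Ms4a1 and Ly6d lie between 11.04 and 15.7, Ebf1 at 1.17, Csf1r at 15.9, C1q genes at 848 or more and Gzma at 1.93.

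Further genes of the B lineage were examined through lists of surface molecules, receptor signalling, transcription factors, early, mature, marginal zone and B-1, plasma cell and immunoglobulin genes. Of 91 genes of these lists in the table, 32 had a mean of at least 1 FPKM and were tested with limma-trend and Benjamini-Hochberg adjustment, and 0 had an adjusted p under 0.05 in either direction. Over all 4412 tested genes, 0.0227% were called higher and 0% lower. With 1 gene of 4412 called, a count of 0 in 32 is no result about these lists. Some of the 32, such as Spi1 and Ly86, reached the mean only through pre-AML 3. At an unadjusted p under 0.05, 1 of the 32 was higher and 2 were lower, while the counts over all genes were 113 and 288. With the libraries rescaled to the same FPKM sum, the counts over all genes were 272 higher and 196 lower. Of the list genes tested, the count in either direction was 14 of 35 without pre-AML 1 and 0 of 34 without control 1. Over all genes, 206 of 4432 were higher and 450 lower without pre-AML 1. Without control 1, 70 of 4424 were higher and 134 lower. The median log2 difference was 0.14 for the 32 and -0.055 for all 4412.

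Most other surface genes of B cells that were low in the controls were highest in pre-AML 3. Cxcr5, a receptor that guides B cells into follicles, was at 0 in the controls and pre-AML 1, at 0.262 FPKM in pre-AML 2 and at 4.47 FPKM in pre-AML 3. Ly86, which encodes MD-1, a partner of the RP105 receptor, had 9.03 FPKM in pre-AML 3 and 0 in all controls. Of 14 surface genes with a control mean under 1 FPKM, 12 were highest in pre-AML 3 and 8 stood above the controls and pre-AML 1 in pre-AML 2. Over all 10712 genes with so low a control mean, 44.3% were highest in pre-AML 3, the deepest library, and 22.3% stood above the controls and pre-AML 1 in pre-AML 2. Cd37, a tetraspanin that platelets carry too, had 10.2 to 21.1 FPKM in the controls and 11.1, 11.4 and 20.0 FPKM in the pre-AML libraries, so the groups overlapped.

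The signalling genes fell into those that control platelets hold and those they lack. Lyn, a kinase that phosphorylates ITAMs in B cells and platelets alike, had 202, 202 and 227 FPKM in the controls and 196, 202 and 148 FPKM in the pre-AML libraries. Its log2 difference was -0.22 (standard error 0.16, adjusted p = 0.587 by limma-trend). Syk, the kinase that binds phosphorylated ITAMs, had 11.2 to 12.9 FPKM in the controls and 12.9 to 13.8 FPKM in the pre-AML libraries. Dapp1, an adaptor, and Btk, a kinase upstream of phospholipase C, had log2 differences of -0.32 and -0.31, with adjusted p of 0.535 and 0.526 by limma-trend. In FPKM, these genes were lowest, or within the range of the others, in pre-AML 3. Values of that library had been divided by 1.33 times its recovered reads, so equal shares of the reads give lower FPKM there.

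Blk, a Src-family kinase of B cells, was at 0 in the controls and pre-AML 1, at 0.442 FPKM in pre-AML 2 and at 3.18 FPKM in pre-AML 3. Blnk, the adaptor that links SYK to BTK in B cells, had 0.0142 FPKM at most in the controls, 0.0664 FPKM in pre-AML 2 and 0.823 FPKM in pre-AML 3. Bank1, a B cell scaffold, had 0.985 FPKM in pre-AML 3 and at most 0.0974 FPKM elsewhere. The 5 signalling genes under 1 FPKM in the controls were all highest in pre-AML 3. Over all genes with so low a control mean, 44.3% were highest there. Of the 7 tested genes of this list, 0 passed the test, beside 1 of all 4412.

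**Figure D3:**
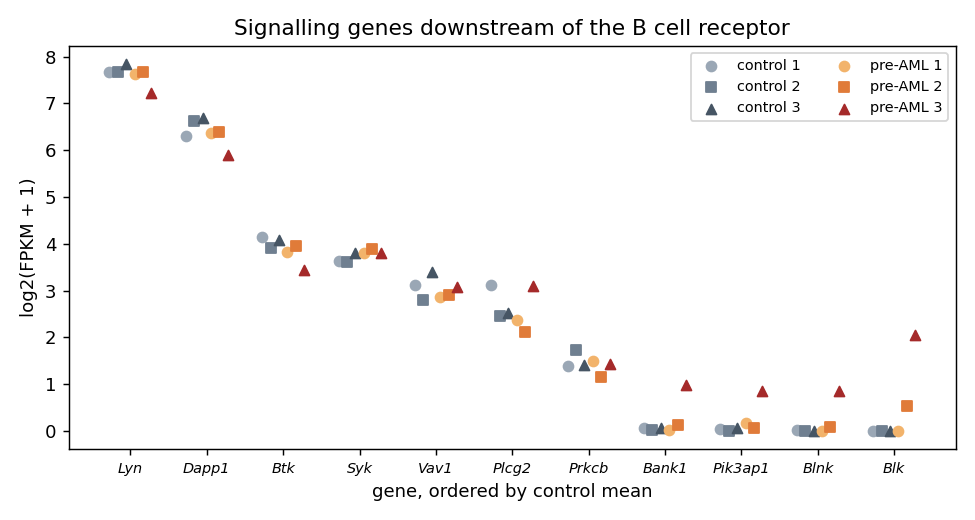
Levels of signalling genes downstream of the B cell receptor, as log2(FPKM + 1), with 1 point per library and the genes ordered by control mean. The 7 genes from Lyn to Prkcb are present in all libraries, and Bank1, Pik3ap1, Blnk and Blk are near 0 except in pre-AML 3 and, for Blk, pre-AML 2.

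Among transcription factors, Spib, an Ets factor of B cells, was at 0 in the controls and pre-AML 1 and had 0.508 and 3.47 FPKM in pre-AML 2 and pre-AML 3. Pou2af1, a co-activator of octamer-binding factors, had 0.0659 FPKM at most in the controls, 0.364 FPKM in pre-AML 2 and 2.22 FPKM in pre-AML 3. Both were at a higher level per length in pre-AML 3 than Ebf1 and Pax5. Spi1, which encodes PU.1 and is used by myeloid cells and B cells, had 0.194 to 0.420 FPKM in the controls and 0.444, 0.664 and 11.1 FPKM in the pre-AML libraries. The mean of Spi1 reached 1 FPKM only through pre-AML 3, so its log2 difference of 1.25 is given without a test. Id3, an inhibitor of E proteins, ranged from 1.04 to 3.91 FPKM in the controls and from 2.81 to 3.62 FPKM in the pre-AML libraries.

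Of 8 early B cell genes with a control mean under 1 FPKM, 1 was highest in pre-AML 3. Over all genes with so low a control mean, 44.3% were highest there. Vpreb1 and Dntt had no more than 2 reads in any library, so their order says little. Vpreb1 and Vpreb3, parts of or related to the surrogate light chain, had 1 read each in pre-AML 3. Dntt, the enzyme that adds bases to receptor gene joints, had 0 reads there, and Il7r, the receptor for interleukin 7, had 2. The 8 genes summed to 0.431 to 1.22 FPKM in the controls, 0.798 FPKM in pre-AML 1, 0.363 FPKM in pre-AML 2 and 1.23 FPKM in pre-AML 3. The 1 gene was Bst1, which early B cells share with myeloid cells, at 0 in the controls and at 0.0227, 0.03997 and 0.737 FPKM in the pre-AML libraries.

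Plasma cell genes went apart from one another. Jchain, the joining chain of IgM and IgA, had 0.305 to 0.678 FPKM in the controls and 0.418, 0.579 and 0.204 FPKM in the pre-AML libraries, lowest in pre-AML 3. Prdm1, the factor that drives plasma cell formation, had 1 read in pre-AML 3. Mzb1, an endoplasmic reticulum protein of marginal zone B cells, B-1 cells and plasma cells, had 0.0521 FPKM at most in the controls, 0.243 FPKM in pre-AML 2 and 3.91 FPKM in pre-AML 3. Sec11c, a signal peptidase subunit, had a log2 difference of -0.46 (adjusted p = 0.522 by limma-trend).

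On the mature B cell list, 6 of 8 genes with a control mean under 1 FPKM were highest in pre-AML 3. On the marginal zone and B-1 list it was 7 of 9, and over all genes with so low a control mean 44.3%. The examples given here include genes that were not highest there. Fcer2a (CD23) and Cr2 (CD21), surface proteins of follicular and marginal zone B cells, had 0.0277 and 0.0158 FPKM in pre-AML 3, levels within the range of the other 5 libraries. Zbtb32, a zinc finger repressor, had 0.107 FPKM at most in the controls, 0 in pre-AML 1, 0.338 FPKM in pre-AML 2 and 5.46 FPKM in pre-AML 3. Siglecg, an inhibitory receptor that is strong on B-1 cells, had 2.28 FPKM in pre-AML 3 and at most 0.359 FPKM elsewhere. Cd5, a marker of B-1a cells and of T cells, had 0.0362 FPKM in pre-AML 3, below its 0.0745 FPKM in pre-AML 2. Bhlhe41, a factor of B-1 cells, had 1.498 to 1.93 FPKM in the controls and 1.88 to 2.498 FPKM in the pre-AML libraries.

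Markers of other blood cells moved with the B cell genes in part. For the genes under 1 FPKM in the controls, the summed level of 15 monocyte and macrophage markers was 0.418 to 1.44 FPKM in the controls and 0.662, 2.74 and 290 FPKM in the pre-AML libraries 1 to 3. All 15 were highest in pre-AML 3, as were 44.3% of all genes with so low a control mean. The 11 natural killer cell markers summed to 0.0656 to 0.924 FPKM in the controls and 14.1, 7.06 and 17.6 FPKM in the pre-AML libraries, so pre-AML 1 was high for these and not for the B cell genes. The 10 T cell markers summed to 0.0330 to 0.184 FPKM in the controls and 2.00, 1.02 and 9.89 FPKM in the pre-AML libraries. Of the last value Cd2, which natural killer cells and B cells of mice carry too, made up 6.84 FPKM and Cd3e, a subunit of the T cell receptor complex, 0.242 FPKM. The 10 neutrophil markers summed to between 1.81 and 2.62 FPKM in all libraries. The sums of 6 plasmacytoid dendritic cell markers (5.06 FPKM) and 4 erythroid markers (2.72 FPKM) were highest in pre-AML 2, where 1 gene made up most of each, Cox6a2 with 3.80 FPKM and Alas2 with 1.96 FPKM. Of the 6 dendritic cell markers, 4 were highest in pre-AML 3, a count too small to read beside the 44.3% of all such genes. For Runx2 this was 0.0485 FPKM against 0.0482 FPKM in control 1. The 8 class II genes summed to 1.24 to 1.38 FPKM in the controls and 0.765, 11.4 and 99.6 FPKM in the pre-AML libraries. Their part in the levels of the B cell genes was not tested.

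Ptprc, the gene of CD45, against which cells had been depleted, had 0.0863 FPKM at most in the controls and 0.140, 0.179 and 1.57 FPKM in the pre-AML libraries 1 to 3. The platelet gene Pf4 had its lowest level, 38150 FPKM, in pre-AML 3, and its log2 difference was -0.36 (standard error 0.20, adjusted p = 0.534 by limma-trend).

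**Figure D4:**
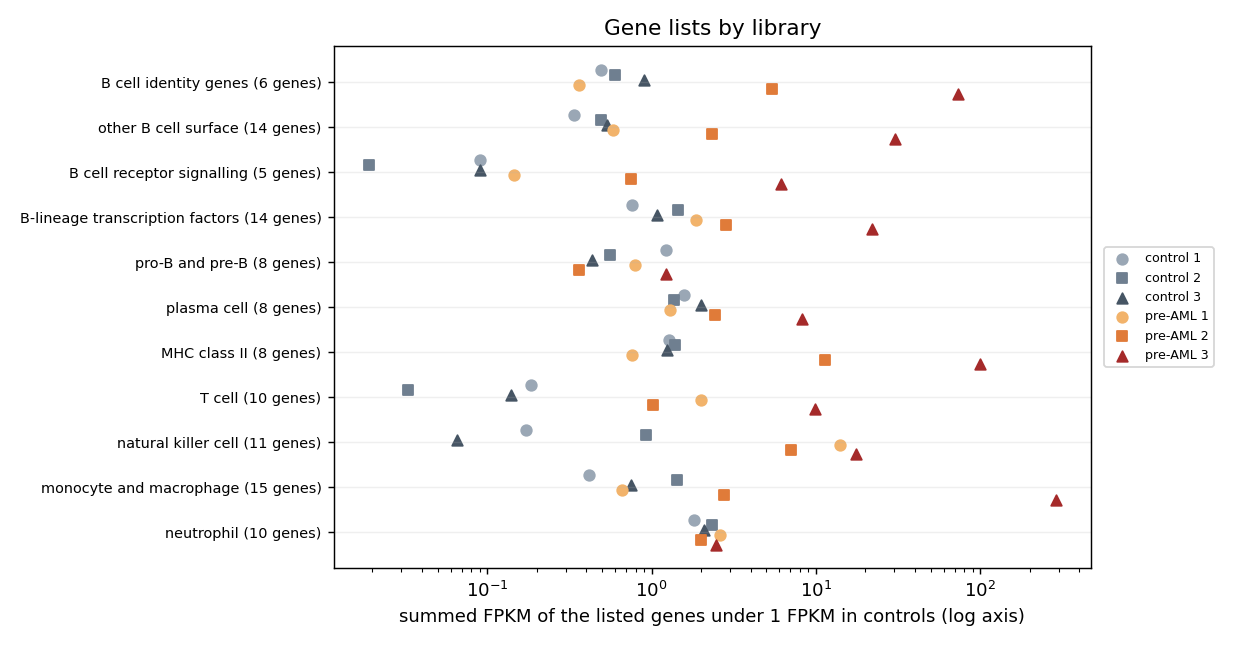
Summed FPKM on a log axis of the genes of each list that have a control mean under 1 FPKM, with 1 point per library and the number of genes in brackets. Pre-AML 2 and pre-AML 3 stand to the right of all other libraries for the B cell identity, other B cell surface, signalling and transcription factor lists. The same holds for the plasma cell, class II, and monocyte and macrophage lists. Pre-AML 1 is high for natural killer cell markers, and the neutrophil points lie together.

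The genes whose pattern over the 6 libraries was most like the mean log2(FPKM + 1) of the 6 B cell genes were sought among 4409 other genes whose mean reached 1 FPKM. Likeness was Pearson's r over the 6 libraries, which rests mostly on pre-AML 3, and 18 genes had r of 0.99 or more. The 10 highest were Eif4h, Snx20, Ctss, H2-Aa, Slamf9, Pld4, Lsp1, Ctsh, Csf1r and Gm2a, from 0.999 for Eif4h to 0.994 for Gm2a. Ctss, the protease cathepsin S of antigen-presenting cells, had 0.247 FPKM at most in the controls, 0 in pre-AML 1, 1.27 FPKM in pre-AML 2 and 47.6 FPKM in pre-AML 3. Eif4h, a translation initiation factor, had 1.45 to 1.56 FPKM in the controls and 1.46, 2.16 and 5.07 FPKM in the pre-AML libraries. H2-Aa was the 1 gene among the 10 that is on the class II list, and Csf1r is on the monocyte and macrophage list.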

How the data were processed

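RNA of 3 WT and 3 AML platelet libraries was analysed, mapped to groups by their titles. The authors aligned reads to mm10 with STAR (2.5.2b) and used DESeq2 (1.12.4). The deposited table holds FPKM per gene and library, and its counting program and annotation are not given in the sources used here. FPKM are not counts, so limma-trend (limma 3.58.1, R 4.3.3) was fitted to log2(FPKM + 1) of the 4412 genes whose mean reached 1 FPKM, without covariates, two-sided, with Benjamini-Hochberg adjustment over all of them and a threshold of 0.05. The fit was first run on simulated data with the same spread in every library, which says nothing about data with an outlying library such as pre-AML 3. Gene lengths are unions of exons in GENCODE M21, found by symbol for 14651 genes. Python 3.11.15, scipy 1.17.1, pandas 2.3.3 and numpy 2.4.6 were used.

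The members and gene lists were chosen with earlier results of these data known. Named genes are the members, the up to 3 most abundant genes of each list, Ptprc, Itga2b, and the 10 genes most like the members. Others named from the lists, and the minimum of 50 reads for ratios, were chosen after values were seen. Not every gene that this rule allows is printed, and some genes that are counted in their lists are not reported here by name or drawn in the plots of single genes.

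Alternatives were a pseudocount of 0.1, no filter, quantile normalization, rescaling to the same FPKM sum, no trend, the replicate number as a block, and leaving out each library.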

Additional observations from a re-analysis of the deposited data

How the results depend on the processing

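The 1 gene called higher over all genes was 0 with no filter on low values and 0 with the libraries rescaled to the same FPKM sum, and between 0 and 2 with 1 library left out. It was 2 without pre-AML 3 and 0 without control 1, control 3 or pre-AML 1. Under the 12 alternatives of the limma fit, 0 genes were called lower, with 134 to 450 at an unadjusted p under 0.05, and 0 genes of the B-lineage lists were called in either direction. With the replicate number as a block, 1 gene was called higher and 0 lower. Deviations from the group mean had correlations of -0.043, -0.12 and -0.17 between same-numbered libraries. With 3 libraries per group these values depend on one another and rest mostly on pre-AML 3, so they cannot settle whether libraries were paired. The numbers were not taken as pairs, and the block changed no call.

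The differences of the B cell genes rest on pre-AML 3. Their median of 1.27 was 0.31 without it and 2.41 at most over the alternatives, and it stayed above 0 in each. Rescaling moved the median of all tested genes from -0.055 to 0.084, a shift above 0.1, and Ebf1 from 0.088 to 0.12. With quantile normalization Ebf1 was at 0.012. With a pseudocount of 0.1, Ms4a1 was at 1.97, Ebf1 at 0.42 and Pax5 at 0.51. At 3 reads per library, levels under 0.344 FPKM for Ly6d or 0.0289 FPKM for Pax5 were not detectable in control 1.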
